A study of Mus musculus with 18 samples.

Results

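Megakaryocyte and platelet genes were described here in the RNA of adipocyte preparations from 2 mouse fat depots. The set holds 9 named genes, Ppbp, Pf4, Itga2b, Gp1ba, Gp5, Gp6, Gp9, Tubb1 and Clec1b. A gene entered through probe sets that name it alone, by the one with the highest mean over all 18 arrays, and 7 of the 9 genes have such a probe set, of 19938 genes in all. These are the probe sets 10523128 (Ppbp), 10523134 (Pf4), 10391697 (Itga2b), 10438907 (Gp5), 10539818 (Gp9), 10479154 (Tubb1) and 10542172 (Clec1b). No probe set used here names Gp1ba or Gp6, and their expression was not analysed here. The study compared floated bone marrow adipocytes with epididymal white adipocytes at 6, 14 and 18 months of age, with 3 Affymetrix gene arrays in each of the 6 groups. All donors were male C57BL/6J mice on standard chow, and the labels name no transgene and no drug in any group. Marrow was flushed from femurs and tibias, its red cells were lysed and the floating cells were collected, while epididymal fat was digested with collagenase before flotation. Neither preparation was sorted by surface markers. By staining for CD11b, the paper found monocytes or macrophages in both preparations, to a similar degree. Each array holds RNA pooled from several animals, with 6 to 10 animals behind a group, so that an array stands for a pool and no array for 1 mouse. The second cell type is peripheral in the deposited labels and epididymal in the paper, and was read as 1 cell type here.

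Megakaryocytes are the large, polyploid marrow cells that shed platelets into the blood. They lie beside the sinusoids of the marrow, extend long proplatelets into them, and load the platelets with granules, surface receptors and RNA. Platelets have no nucleus, but they carry RNA of the same genes. Their program is driven by transcription factors of the GATA, ETS and NF-E2 families together with Runx1.

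The promoters of the members are shown because the genes moved together between arrays and because GATA and ETS factors are the known regulators of the lineage. RefSeq windows of 300 bases on GRCm38.p6, 250 before to 50 after a start, were found for all 9 genes. For 6 of them that start is the outermost base of the RefSeq gene, while it lies 20 bases inside the gene for Gp1ba, 107 for Gp6 and 1939 for Gp9. GATA sites were searched on both strands as AGATAA, also with T as its first letter, with G as its last, or with both. ETS sites were searched on both strands as AGGAAG, also with C as its first letter, with A as its last, or with both. TATA boxes were searched as TATAAA on the gene's own strand, and overlapping matches were each counted. The windows of Ppbp (chr5:90768268-90768567, plus strand), Pf4 (chr5:90772185-90772484, plus strand) and Gp5 (chr16:30310732-30311031, minus strand) are printed 5′ to 3′, with capitals on the matches. Ppbp and Pf4, the 2 chemokine genes, lie near each other on chromosome 5, and Gp5 has the most GATA matches among the members with a measured probe set.
Ppbp: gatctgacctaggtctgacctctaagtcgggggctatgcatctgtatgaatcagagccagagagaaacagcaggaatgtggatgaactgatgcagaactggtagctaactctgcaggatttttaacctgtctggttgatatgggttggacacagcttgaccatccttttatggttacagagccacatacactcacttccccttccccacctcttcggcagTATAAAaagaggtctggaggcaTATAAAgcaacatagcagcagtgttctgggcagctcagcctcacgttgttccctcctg
Pf4: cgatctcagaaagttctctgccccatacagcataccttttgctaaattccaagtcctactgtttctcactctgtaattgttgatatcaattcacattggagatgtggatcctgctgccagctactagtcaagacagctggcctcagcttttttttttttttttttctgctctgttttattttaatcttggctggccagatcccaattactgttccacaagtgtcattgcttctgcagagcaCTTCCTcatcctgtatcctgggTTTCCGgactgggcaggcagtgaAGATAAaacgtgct
Gp5: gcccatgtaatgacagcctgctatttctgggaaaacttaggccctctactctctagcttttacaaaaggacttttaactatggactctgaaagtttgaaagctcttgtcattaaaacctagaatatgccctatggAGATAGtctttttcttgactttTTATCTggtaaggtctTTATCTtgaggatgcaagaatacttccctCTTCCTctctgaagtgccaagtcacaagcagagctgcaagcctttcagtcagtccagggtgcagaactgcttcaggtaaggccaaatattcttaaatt

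The Ppbp window holds 2 TATA matches and no match of the other kinds, the Pf4 window 2 ETS matches and 1 GATA match, and the Gp5 window 3 GATA matches and 1 ETS match. A GATA match was in the windows of 5 of the 9 members, against 29.8% of the 32851 promoter windows in the table. An ETS match was in 8 of 9 (64.7% of all windows), both kinds together in 5 of 9 (19.1%), and TATAAA in 2 of 9 (8.32%). The NF-E2 element TGACTCA, searched on both strands, was in 0 of 9 windows, against 5.2% of all. Without Gp9, whose window lies far inside the gene, these counts were 5, 7, 5, 2 and 0 of 8. These matches describe the letters of the windows and do not show that a factor binds there.

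All values are log2 expression as the authors deposited them, and differences were tested with limma (against both directions) over 23410 probe sets that name a gene, with p values adjusted by Benjamini and Hochberg. A difference between cell types was called at an adjusted p under 0.05 and a fold of 2, and a difference between ages at an adjusted p under 0.05. Replicate spread, as the median SD over probe sets, was 0.219 in 6-month bone marrow and between 0.0972 and 0.145 in the other 5 groups. The mean of 18 adipocyte genes was between 6.57 and 7.12 on the bone marrow arrays and between 11.47 and 12.03 on the epididymal arrays. All 18 were lower in bone marrow, and the genes of adiponectin and leptin, Adipoq and Lep, differed by -5.16 and -8.37. Genes of neutrophils (15 of 15 measured) and of erythroid cells (12 of 12) were higher in bone marrow, where 10.2% of all tested probe sets were called higher and 11.6% lower. The first 6-month epididymal array stood apart in these lists, with a neutrophil mean of 8.47 against 5.40 and 5.32 on the other two, and an erythroid mean of 7.12 against 5.76 and 5.75. Leaving it out changed no count of members called that is given below.

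All 7 measured genes were higher in bone marrow than in epididymal adipocytes over the 3 ages, where 10.2% of all tested probe sets were called higher and 11.6% lower. Their log2 differences lay between 2.48 and 6.46 with a median of 3.13, while the median over all tested probe sets was -0.02. For 6 of the 7 genes, each of the 9 bone marrow arrays lay above each of the 9 epididymal arrays, as was so for 12.4% of tested probe sets. Pf4 was the exception. In epididymal adipocytes the mean of each of the 6 genes other than Pf4 was below the middle of all tested probe sets. It lay above 22.1% of them for Clec1b, the lowest, and above 48% for Ppbp, the highest. Whether these levels are background was not tested. All 7 genes also passed a limit of 2 on the log2 scale (4.16% of probe sets), and Ppbp and Tubb1 passed a limit of 4 (0.769%). In bulk RNA, fewer cells of a type and less RNA per cell cannot be told apart. Likewise, RNA of megakaryocytes and RNA of platelets held in the preparation cannot be told apart.

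**Figure D1:**
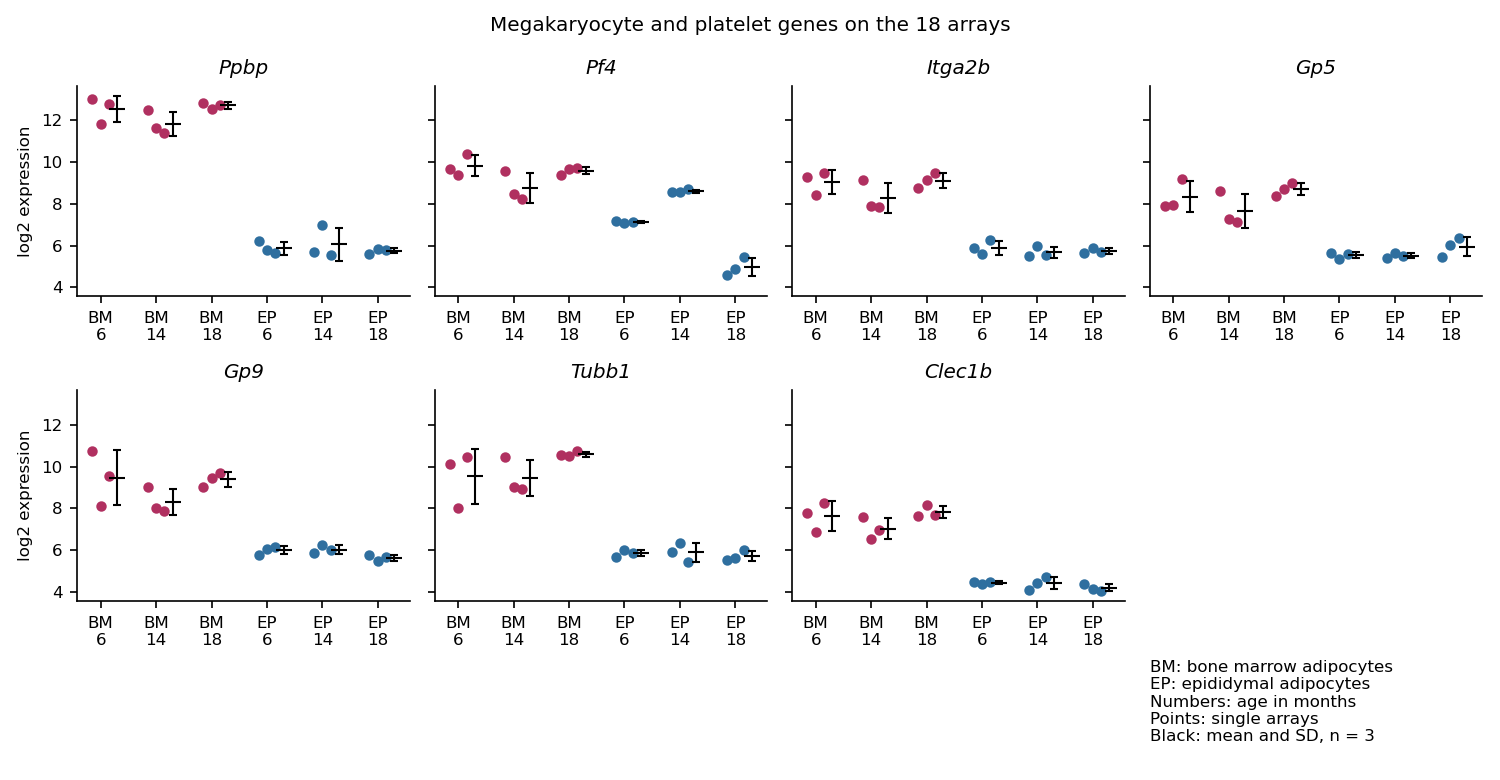
Log2 expression (vertical axis) of the 7 measured genes on each of the 18 arrays, by cell type and age in months (horizontal axis), with black marks for the mean and SD of 3 arrays. In 6 panels the bone marrow points lie above all epididymal points, and in the Pf4 panel the 14-month groups overlap.

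The 2 granule chemokines, both released by activated platelets, differed in how they varied with age and cell type. Ppbp, which encodes pro-platelet basic protein (Cxcl7), was at 13.02, 11.84 and 12.80 in 6-month bone marrow, at 12.47, 11.61 and 11.38 at 14 months and at 12.84, 12.54 and 12.74 at 18 months. In epididymal adipocytes it was at 6.22, 5.77 and 5.63, at 5.68, 6.97 and 5.56, and at 5.61, 5.83 and 5.80 at the same ages. The lowest bone marrow array thus lay far above the highest epididymal array, the second of 14 months. The difference was 6.46 ± 0.20 (log2, SE, adjusted p = 5.49e-16), a fold of 88.2, and it ranked 3 among the 19938 genes from the top.

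Pf4, platelet factor 4 (Cxcl4), binds heparin and is made in megakaryocytes. It was at 9.69, 9.39 and 10.37 in bone marrow at 6 months, at 9.58, 8.45 and 8.25 at 14 months and at 9.38, 9.67 and 9.71 at 18 months. The epididymal values were 7.20, 7.08 and 7.14 at 6 months, 8.58, 8.56 and 8.69 at 14 months and 4.62, 4.90 and 5.44 at 18 months. The 3 epididymal age groups did not overlap, and the 14-month epididymal arrays lay above 2 of the 14-month bone marrow arrays. Over the ages the difference was 2.48 ± 0.16 (adjusted p = 6.08e-11), the smallest of the 7 genes.

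Among the surface receptors, Itga2b encodes the alpha chain of the fibrinogen receptor. It was at 9.27, 8.42 and 9.50 in bone marrow at 6 months, at 9.13, 7.90 and 7.85 at 14 months and at 8.74, 9.14 and 9.46 at 18 months. All 9 epididymal arrays were between 5.53 and 6.25, with a median of 5.68. The cell types were thus well apart, by 3.05 ± 0.18 (adjusted p = 9.3e-12).

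Gp9 and Gp5 encode chains of the receptor complex for von Willebrand factor, whose ligand-binding chain is the product of Gp1ba. Gp9 was at 10.72, 8.12 and 9.57 in bone marrow at 6 months, at 9.01, 8.03 and 7.89 at 14 months and at 9.01, 9.46 and 9.67 at 18 months. Epididymal values of Gp9 ran from 5.48 to 6.25 with a median of 5.84, and the cell types differed by 3.17 ± 0.24 (adjusted p = 6.3e-10). The spread at 6 months was wide for Gp9, with an SD of 1.30 between the bone marrow arrays. Gp5 was at 7.88, 7.93 and 9.19 in bone marrow at 6 months, at 8.60, 7.28 and 7.13 at 14 months and at 8.40, 8.72 and 8.98 at 18 months, while its epididymal values ran from 5.37 to 6.35 with a median of 5.60. Its difference of 2.56 ± 0.20 (adjusted p = 8.75e-10) was close to that of Pf4.

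Clec1b encodes the platelet receptor for podoplanin. It was at 7.78, 6.87 and 8.25 in bone marrow at 6 months, at 7.58, 6.55 and 6.96 at 14 months and at 7.61, 8.17 and 7.68 at 18 months. The epididymal arrays were between 4.06 and 4.72, with a median of 4.40. No epididymal array came near the lowest bone marrow array, and the difference was 3.13 ± 0.16 (adjusted p = 1.73e-12).

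Tubb1 encodes the beta tubulin of the marginal band, the microtubule coil that keeps platelets flat. It was at 10.13, 8.04 and 10.44 in bone marrow at 6 months, at 10.47, 9.0 and 8.91 at 14 months and at 10.54, 10.51 and 10.73 at 18 months. Epididymal values ran from 5.42 to 6.35 with a median of 5.88. The second 6-month array was the lowest of the 9 bone marrow arrays and the 18-month arrays were tightly grouped. The difference of 4.05 ± 0.27 (adjusted p = 6.38e-11) was the next largest after that of Ppbp.

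At 6 months all 7 genes were higher in bone marrow (11.4% of tested probe sets were called higher), at 14 months 6 of 7 (9.91%) and at 18 months 7 of 7 (10.9%). The gene without a call at 14 months was Pf4, with a difference of 0.15 ± 0.28 (adjusted p = 0.713), against 2.68 ± 0.28 at 6 months (adjusted p = 1.29e-07) and 4.60 ± 0.28 at 18 months (adjusted p = 5.47e-11). Leaving out 1 array at a time, its 14-month difference ran from -0.26 to 0.41. Ppbp differed by 6.68, 5.75 and 6.96 at 6, 14 and 18 months, and for the remaining 5 genes the difference was also smallest at 14 months. None of these 6 genes passed the test of the difference between ages, given below.

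**Figure D2:**
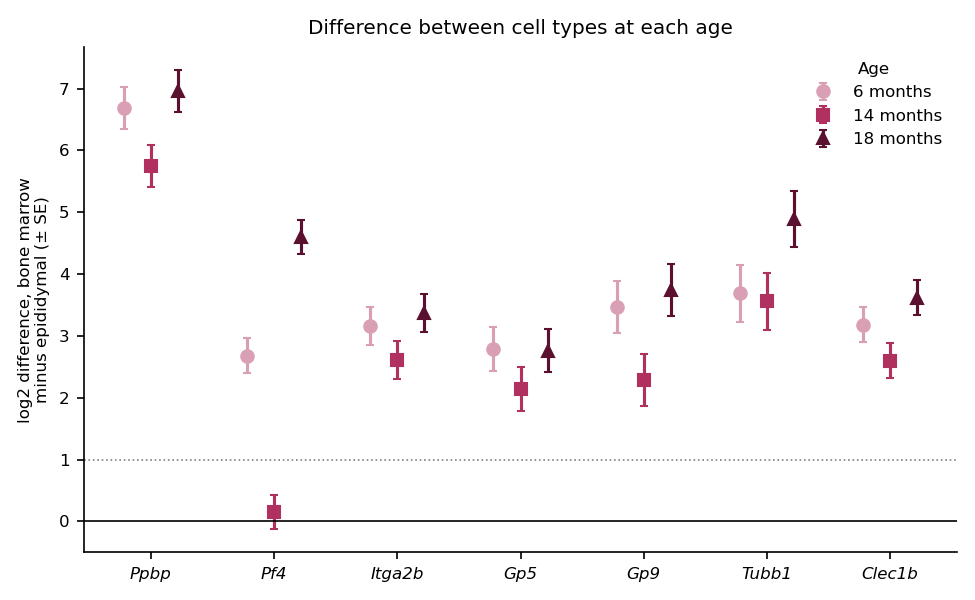
Log2 difference of bone marrow minus epididymal adipocytes (vertical axis, bars give the SE of the fit) for each gene (horizontal axis) at 6, 14 and 18 months, with a dotted line at the 2-fold limit. Pf4 at 14 months, at 0.15, is the only point below the dotted line.

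Within bone marrow the 7 genes went up and down together from array to array. Their mean was 9.79, 8.66 and 10.02 on the 6-month arrays, 9.55, 8.40 and 8.34 on the 14-month arrays, and 9.50, 9.75 and 9.85 on the 18-month arrays. The second 6-month array and the second and the third 14-month array were the low ones. Over the 9 bone marrow arrays the 21 pairs of genes correlated with r between 0.57 and 0.94, with a median of 0.83. Over the 9 epididymal arrays r ran from -0.55 to 0.70, with a median of 0.27. There all genes but Pf4 had means below the middle of tested probe sets, and the part of low signal in r was not tested. These points share their arrays, and the age groups are among them, so that the coefficients are descriptions.

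**Figure D3:**
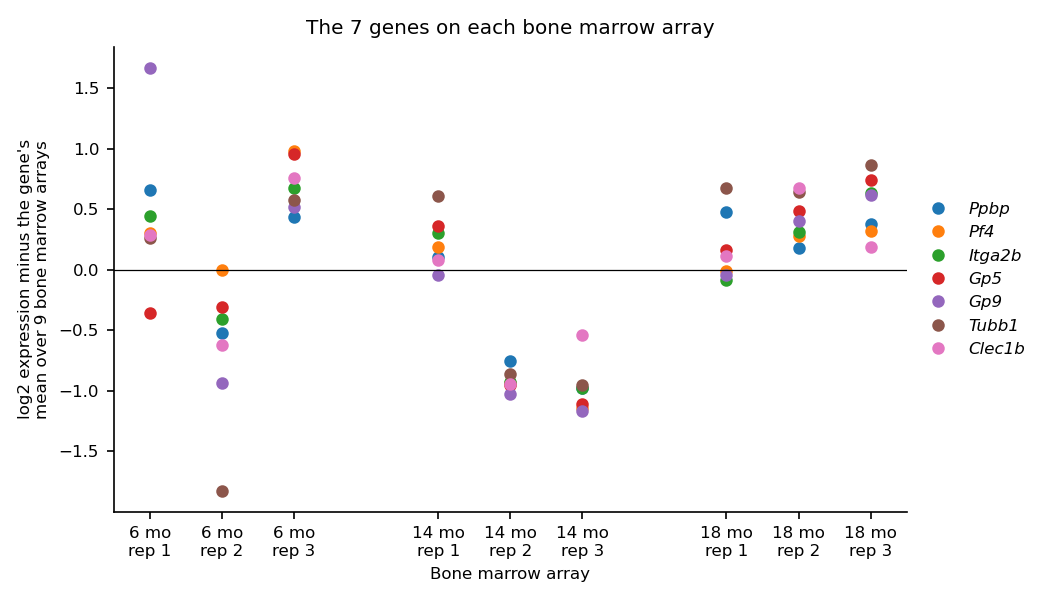
Log2 expression of each gene minus its mean over the 9 bone marrow arrays (vertical axis) on each bone marrow array (horizontal axis), 1 color for each gene. On the second and the third 14-month array all 7 genes lie below 0, and on the third 6-month and the second and the third 18-month array all 7 lie above 0.

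Between 14 and 6 months in bone marrow, Pf4 fell by 1.06 ± 0.28 (log2, SE, adjusted p = 0.0238), and it was the only member called, where 3.58% of tested probe sets were called lower. Of the members 5 of 7 had an unadjusted p under 0.05, and the share of all probe sets at that unadjusted limit was not counted. The 14-month and 6-month arrays of Pf4 overlapped. All 7 members had a negative value in this comparison, between -1.16 for Gp9 and -0.08 for Tubb1, with a median of -0.73 against -0.02 over all probe sets. The fall of Pf4 lost its call without the third 6-month array (-0.78, adjusted p = 0.0828) or without the second (-0.90, adjusted p = 0.107) or the third (-0.80, adjusted p = 0.142) 14-month array. It was also lost with an ordinary analysis of variance (adjusted p = 0.0818), with array weights (0.0745), with only the groups compared in the fit (0.229) and with all probe sets tested (0.0541). Without the second 6-month array 5 members were called lower, and without the first 14-month array 4. The shares of all probe sets called without these arrays are not given here. Endothelial genes were also lower in bone marrow at 14 months, with 8 of 12 called lower and a median of -0.87. Their mean was 6.88, 6.23 and 6.25 on the 14-month arrays, against 7.14, 7.32 and 7.03 on the 6-month arrays, and spanned 6.17 to 6.40 at 18 months. The second and the third 14-month array were thus the low ones of that age for the endothelial genes and for the members alike, whereas the second 6-month array, low for the members, was the high one of its age for the endothelial genes. The part of endothelial cells in the member values was not tested.

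Between 18 and 6 months in bone marrow, 0 of 7 members were called by limma (8.50% of probe sets in either direction) and 0 with an ordinary analysis of variance, with 1 of 7 at an unadjusted p under 0.05. The values ran from -0.23 for Pf4 to 1.05 for Tubb1. The 18-month arrays of Tubb1 lay above all 6-month arrays, and the share of probe sets so placed is not given here. Without the third 6-month array Tubb1 was called higher. Between 18 and 14 months 0 of 7 were called higher by limma (4.75% of probe sets) or with the ordinary analysis of variance. All 7 were at an unadjusted p under 0.05. For both comparisons, the share of all probe sets at that unadjusted limit was not counted. The count of members called depended on the model, and was 7 with array weights, 5 with only the groups compared in the fit and 3 with quantile normalization repeated. It was 2 with arrays centred on the median, 2 with dim probe sets left out and 1 with ribosomal protein genes set equal. Their values ran from 0.79 for Clec1b to 1.13 for Tubb1, with adjusted p values from 0.0584 to 0.127. The median of 0.89 stands beside -0.03 over all probe sets. For Ppbp, Gp9, Tubb1 and Clec1b the 18-month arrays lay above all 14-month arrays, for Gp9 by less than the rounding, as was so for 12.6% of probe sets. The count of members called higher at 18 months also depended on single arrays, and was 7 without the first 14-month array. It was 4 without the second 6-month array, 3 without the first or the third 6-month array, and 1 without the second 14-month epididymal array. Over both older ages together, the F test called only Pf4 in bone marrow (adjusted p = 0.0252, 18.5% of probe sets called). It called 7 members without the first 14-month array, 6 without the second 6-month array, 3 without the third and 2 without the first, and 0 without the second or the third 14-month array. The shares of all probe sets called under these other models and without these arrays are not given here. A general rise in calls thus cannot be told apart from one of the members.

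In epididymal adipocytes, Pf4 rose by 1.47 ± 0.28 at 14 months against 6 months (adjusted p = 0.000931), where 10.2% of tested probe sets were called higher. At 18 months it fell by 2.15 ± 0.28 against 6 months (adjusted p = 3.54e-05, 8.01% of probe sets called lower) and by 3.62 ± 0.28 against 14 months (adjusted p = 1.8e-08, 12.5% called lower). Without the first 6-month array, which stood apart in neutrophil genes, the first 2 values were 1.50 and -2.12. None of the other 6 members was called in any of these 3 comparisons, and their values ran from -0.40 to 0.41. Their mean levels lay below the middle of all tested probe sets, and the part of low signal in this was not tested. For Gp9 all 18-month arrays lay below all 6-month and 14-month arrays, at most 5.77 against at least 5.78 and 5.84. The shares of probe sets without overlap between epididymal ages, as for Pf4 and Gp9, are not given here. The F test over both older ages gave an adjusted p of 5.45e-08 for Pf4, the only member among the 31.0% of probe sets called.

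Genes of several cell types, macrophages and endothelial cells among them, moved with Pf4 in the epididymal preparations. The mean of 14 macrophage genes spanned 7.12 to 7.16 on the 6-month arrays, 8.54 to 8.95 on the 14-month arrays and 6.12 to 6.18 on the 18-month arrays. Of these 14 genes 10 rose at 14 months against 6 months (median 2.16), 9 fell at 18 against 6 months (median -0.91) and 10 fell at 18 against 14 months (median -3.27). Over all tested probe sets these shares were 10.2% higher, 8.01% lower and 12.5% lower. Adgre1, which encodes F4/80, and Csf1r, the receptor of a macrophage growth factor, rose by 2.18 and 2.20 at 14 months. Over the 9 epididymal arrays, r of Pf4 with the list mean was 0.96, and r with the single genes ran from 0.39 for Marco to 0.99 for Cd163, with 9 of 14 over 0.8. With the other 6 members r ran from -0.49 to 0.70. The macrophage list was set beside Pf4 after its values were seen, and it was not alone. The mean of the endothelial list had an r of 0.98 with Pf4 and that of the stromal ligands 0.97. For the megakaryocyte and erythroid transcription factors r was 0.96, and for the blood stem cell list 0.94. For the remaining lists r was 0.91 for granule genes, between 0.84 and 0.88 for surface proteins, signalling, cytoskeletal and B cell genes, 0.79 for mast cells and basophils, 0.07 for erythroid cells, -0.44 for neutrophils and -0.86 for adipocyte genes. A ranking without any list covered the 9649 genes whose epididymal mean was above the median of all tested probe sets. The 10 most like Pf4 began with Serinc3 (r = 0.997), Tspan2 (0.994), Adcy4 (0.992), Sema6a (0.992) and Fgl2 (0.992). The others were 2610005L07Rik (0.992), Ahr (0.991), Pitpnc1 (0.990), Rhoj (0.990) and Ptprb (0.989). Of these 10, 0 were on the macrophage or the endothelial list, but with such short lists that count says nothing on cell types. The arrays share their age groups, so that these coefficients are descriptions. Endothelial genes moved as well, with 8 of 12 higher at 14 months against 6 months and 11 of 12 lower at 18 against 14 months, and their mean spanned 7.91 to 7.97, 8.64 to 8.82 and 7.09 to 7.17 at 6, 14 and 18 months. The part of these cells in the Pf4 values was not tested.

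**Figure D4:**
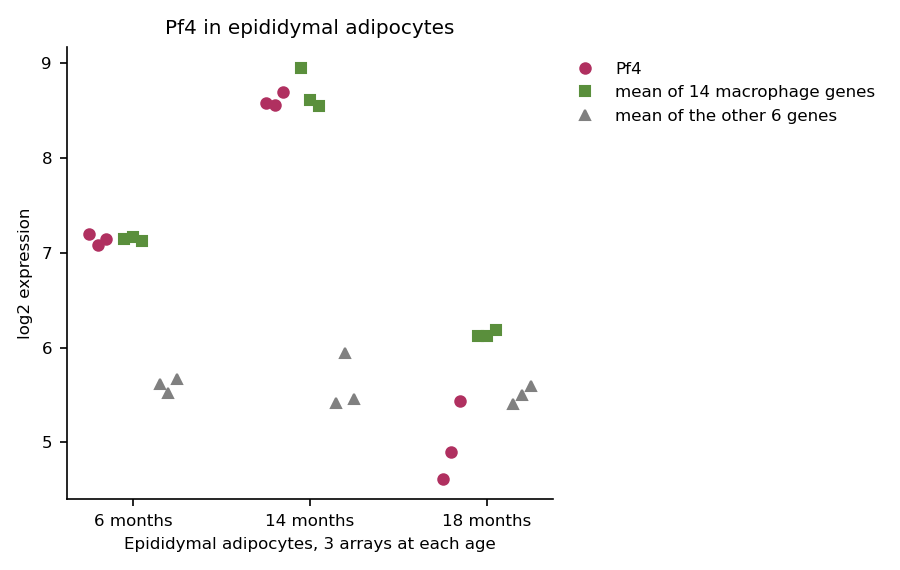
Log2 expression (vertical axis) of Pf4, of the mean of 14 macrophage genes and of the mean of the other 6 members on the 3 epididymal arrays of each age (horizontal axis). Pf4 spans 7.08 to 7.20 at 6 months, 8.56 to 8.69 at 14 months and 4.62 to 5.44 at 18 months, while the other members stay in a narrow band. Levels of different probe sets are not comparable, only their changes. The macrophage genes were set beside Pf4 after its values were seen. The endothelial list, not drawn here, had an r of 0.98 with Pf4, against 0.96 for the macrophage list.

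The genes with a profile most like the mean of the 7 members were ranked by Pearson's r with that mean, without use of the companion lists. Only genes whose mean over the arrays used was above the median of all tested probe sets, 6.14, were ranked. Over all 18 arrays a gene could pass this limit through bone marrow alone, and the difference between cell types enters r. Over all 18 arrays, among 9948 genes ranked, the first 5 were Alox12 (r = 0.995), Treml1 (0.992), P2rx1 (0.989), Mfsd2b (0.987) and Itgb3 (0.985). Alox12 is the platelet 12-lipoxygenase, Treml1 a receptor of platelet granules and P2rx1 an ATP-gated channel. Itgb3 encodes the partner chain of the Itga2b product. The next 5 were Pank4 (0.985), Iqgap3 (0.984), Slc14a1 (0.983), Lrp8 (0.983) and Knstrn (0.982). Over the 9 bone marrow arrays, where the difference between cell types plays no part, the first 5 were Slc6a4 (0.980), the serotonin transporter, Treml1 (0.979), Alox12 (0.976), P2rx1 (0.970) and Pla2g4a (0.965), a phospholipase that releases arachidonic acid, among 9428. Itga6, Mmrn1, 2700049A03Rik, Vwf and Ube4b completed the first 10. Itga6 was itself lower in bone marrow than in epididymal adipocytes, at -1.93, and Ube4b, also among the first 10, stood at -0.84, under the 2-fold limit. These r values share 9 or 18 arrays and are descriptions.

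Other genes listed for the lineage were mostly higher in bone marrow, where 10.2% of all tested probe sets were called higher and 11.6% lower. These lists are not limited to genes of this lineage alone. The part of other cell types in their values was not tested. Of 11 transcription factors of the megakaryocyte and erythroid lineages measured, 9 were called higher and 0 lower, with a median of 1.9. Gata1 was at 8.47 ± 0.22, 8.0 ± 0.16 and 9.09 ± 0.21 in bone marrow at 6, 14 and 18 months (SD, n = 3), against 4.94 ± 0.18, 4.84 ± 0.16 and 4.92 ± 0.18 in epididymal adipocytes, and differed by 3.62 between the cell types. Nfe2, the subunit of NF-E2 needed for platelet release, differed by 3.36, Runx1 by 1.80 and the ETS factor Fli1 by 1.60. Meis1, a homeobox gene, stood at -0.87, under the 2-fold limit.

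Of 9 adhesion receptors and surface proteins, 7 were higher and 2 lower in bone marrow, with a median of 2.30. Itgb3, the beta chain of the fibrinogen receptor, was at 10.04 ± 0.71, 9.40 ± 0.50 and 9.89 ± 0.38 in bone marrow, against 5.78 ± 0.31, 6.80 ± 0.18 and 5.81 ± 0.13 in epididymal adipocytes (6, 14 and 18 months, SD, n = 3), and differed by 3.64. Itga2, a chain of a collagen receptor, differed by 1.49, and Fcer1g, the signalling partner of the Gp6 product, by 3.43. Itga6, a laminin receptor chain, and Esam, a junction protein that endothelial cells also express, were the 2 lower genes, at -1.93 and -1.60.

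Among 14 genes of alpha granules and granule formation 7 were higher and 0 lower, with a median of 1.14. F5, coagulation factor V, differed by 3.46, Mmrn1, which stores it, by 3.09, and Vwf by 1.38, while Thbs1 was at 0.56 and Clu at -0.99, neither past the 2-fold limit. Of 17 agonist receptors and signalling genes 11 were higher and 0 lower (median 1.9). F2rl2, a thrombin receptor on mouse platelets, had the largest value at 3.84, P2rx1 was at 2.93, and the ADP receptor genes P2ry12 and P2ry1 were both at 0.74, under the limit. F2r, at 0.12, had the smallest. Of 13 cytoskeletal genes 7 were higher and 2 lower (median 1.07), from -3.55 for Cavin2, which fat cells also express for their caveolae, to 3.85 for Bin2. Myh9, the nonmuscle myosin of platelets, differed by 1.32, and the values of Flna, Tln1 and Tpm4 were 0.78, 1.00 and 0.08. Of 3 stromal ligands, Cxcl12, which draws megakaryocytes to the sinusoids, was higher in bone marrow by 2.83, Pdpn, the ligand of the Clec1b product, was lower by a value of -2.36, and Kitl was at 0.06.

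**Figure D5:**
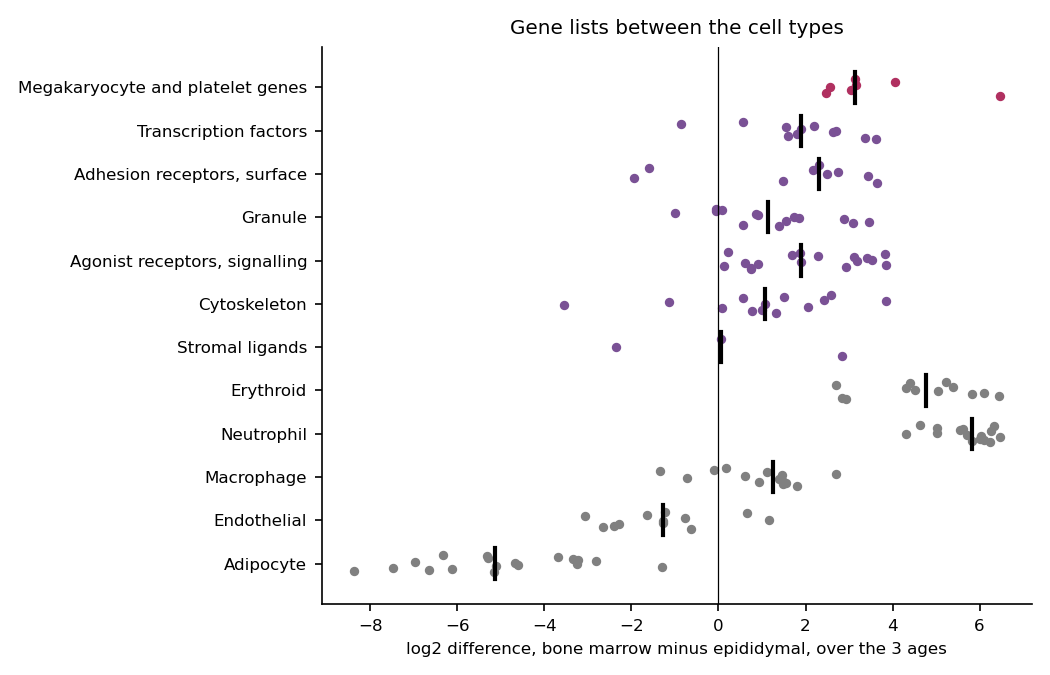
Log2 difference of bone marrow minus epididymal adipocytes over the 3 ages (horizontal axis) for the genes of each list (vertical axis), with 1 point for each gene and a black bar at the median. The members lie between 2.48 and 6.46, the erythroid and neutrophil medians at 4.78 and 5.83 lie further right, and the adipocyte median at -5.13 lies left.

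Of the companion genes, several passed the test of age in bone marrow. At 14 against 6 months 4 of 11 transcription factors fell (3.58% of all tested probe sets), among them Nfe2 by 0.81 and Zfpm1, the cofactor of Gata1, by 0.82. At 18 against 14 months 4 rose (4.75% of probe sets) and 1 fell (1927 of 23410 probe sets), with Gata1 rising by 1.09 (adjusted p = 9.86e-05). The median of these 11 genes was -0.42 in the comparison of 14 with 6 months and 0.16 in that of 18 with 14 months. Of the erythroid genes 6 of 12 also rose at 18 against 14 months. Of the surface proteins Esam fell by 1.01 at 14 months and 3 genes rose at 18 against 14 months, with Cd226, an adhesion receptor, at 1.32, Itga6 at 0.88 and Itga2 at 0.85. In the latter comparison 1 signalling gene rose and 2 fell, and 1 cytoskeletal gene rose and 2 fell. Among the granule genes 0 rose and 1 fell there. Medians were 0.50 for signalling, -0.27 for cytoskeletal and 0.06 for granule genes. F2rl2 fell by 1.60 and the parvin gene Parvb by 1.44 at 14 against 6 months. In epididymal adipocytes 5 of 11 transcription factors, 5 of 9 surface proteins, 7 of 14 granule genes, 9 of 17 signalling genes and 5 of 13 cytoskeletal genes rose at 14 months. Of all tested probe sets 10.2% were called higher in that comparison. Among the granule genes 1 also fell, Thbs1 at -1.73. Vwf rose by 2.09 and Mmrn1 by 2.69 there, both of which endothelial cells also express, while 6 of the 7 members had no call. The part of endothelial cells in these changes was not tested.

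Other lineages were set beside the members over the bone marrow arrays. The mean of the 12 erythroid genes spanned 10.13 to 10.47 at 6 months, 9.82 to 10.11 at 14 months and 10.79 to 10.94 at 18 months, and 6 of 12 rose at 18 against 14 months (4.75% of all tested probe sets). All 12 erythroid genes had a positive value there, with a median of 0.89, equal to that of the members, and 9 of 12 had a negative value at 14 against 6 months (median -0.38). The 11 B cell genes had means of 7.65 to 7.93, 8.69 to 9.03 and 7.50 to 7.90 at the same ages, with 8 of 11 higher at 14 against 6 months (1189 of 23410 probe sets). The neutrophil mean spanned 11.90 to 12.00, 11.63 to 11.77 and 11.32 to 11.45, and the macrophage mean in bone marrow 7.82 to 7.99, 8.23 to 8.87 and 8.06 to 8.59. Over the 9 bone marrow arrays the member mean correlated with the means of the surface protein list (r = 0.98), the signalling list (0.91), the blood stem cell list (0.91), the granule list (0.85), the transcription factor list (0.75), the cytoskeletal list (0.66) and the stromal ligands (0.35). The stem cell list shares 2 genes, Gata2 and Meis1, with the transcription factor list. The coefficients were 0.22 for endothelial genes, -0.23 for mast cells and basophils, 0.46 for the erythroid list, -0.18 for neutrophils, -0.06 for macrophages, -0.64 for B cells and -0.09 for adipocyte genes. The part of these cells in the member values was not tested.

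The change with age was also set between the cell types. Only Pf4 was called, in each of the 3 contrasts, where 11.6%, 8.51% and 15.8% of tested probe sets were called for 14 against 6, 18 against 6 and 18 against 14 months. Its change at 14 against 6 months was lower in bone marrow by a value of -2.52 ± 0.40 (adjusted p = 0.000246), its change at 18 against 6 months higher by 1.93 ± 0.40 (adjusted p = 0.0056), and that at 18 against 14 months higher by 4.45 ± 0.40 (adjusted p = 3.91e-07). The F test of the interaction called Pf4 alone (adjusted p = 1.04e-06, 20.4% of probe sets called). For 18 against 14 months the other 6 members had values between 0.62 for Gp5 and 1.47 for Gp9, none past the threshold. There the count was 4 without the second 6-month or the first 14-month bone marrow array, and 2 without the first 6-month one. For 14 against 6 months it was 2 without the second 6-month bone marrow array. The shares of all probe sets called without these arrays are not given here.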

How the data were processed

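RNA was measured on 18 Affymetrix gene arrays. The authors processed the scans in Partek with quantile normalization and deposited log2 values, which were used unchanged. Their methods name GCRMA, a legend of the paper names RMA and the submitters' processing notes name both, so that the background correction is not settled. Rank by rank, arrays differ by up to 0.58, and array medians lie between 5.33 and 5.65. Of 35556 probe sets, 23410 name a gene and were tested, 1621 of them with several genes, and 12146 unnamed ones were tested only in an alternative. Array number limits the precision.

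All arrays entered a single fit of group means (limma 3.58.1 in R 4.3.3), with moderated t and F tests and Benjamini-Hochberg adjustment over all tested probe sets within each contrast. The fit was tested on simulated data with independent noise for each probe set. Differences that genes share on an array were not simulated. Members and gene lists were chosen with earlier results of these data known. All members are named; of each list, the first genes as listed and its extremes; other genes by rank of correlation. Cd163, Marco, Fcer1g and Esam were named after their values were seen. The alternatives cover scaling, variance model, weights, probe sets, arrays in the fit, blocks, limits and arrays left out. The authors' raw scans and their quantitative PCR were not used here. Pooling evens out animals, and p values measure the spread between pools. Both depots came from the same mice, which the fit does not use. No batch is named in the sources used here, and age and handling cannot be told apart. Motifs and figures were made in Python 3.11.15.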

Additional observations from a re-analysis of the deposited data

Results flagged for a closer look

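The age change of Pf4 differed between the cell types in all 3 contrasts, by limma's interaction test. For 14 against 6 months, the difference was -2.52 (SE 0.40, adjusted p = 0.000246), from a change of -1.06 in bone marrow and 1.47 in epididymal adipocytes. For 18 against 6 months it was 1.93 (SE 0.40, adjusted p = 0.0056), from -0.23 in bone marrow and -2.15 in epididymal adipocytes. For 18 against 14 months it was 4.45 (SE 0.40, adjusted p = 3.91e-07), from 0.83 and -3.62. The 3 contrasts share their groups and are not independent of each other.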

How the results depend on the processing

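Without any 1 array, and under every alternative scaling, variance model, weighting, probe set choice, block and limit, the counts of members called between the cell types stayed at 7 over all ages, 7 at 6 months, 6 at 14 months and 7 at 18 months. The counts with age in bone marrow did not hold. For 14 against 6 months the count of 1 became 0 with an ordinary analysis of variance, with array weights, with only the groups compared in the fit, and with all probe sets tested, where Pf4 had adjusted p values of 0.0818, 0.0745, 0.229 and 0.0541. For 18 against 14 months the count of 0 became 3 with quantile normalization repeated, 2 with arrays centred on the median, 1 with ribosomal protein genes set equal, 7 with array weights, 5 with only the groups compared and 2 with dim probe sets left out. The bone marrow F test called 0 with the analysis of variance, 6 with array weights, 0 with only the groups compared and 0 with all probe sets, against 1. In epididymal adipocytes at 18 against 14 months the count of 1 became 2 with only the groups compared. The difference between cell types in the change of 18 against 14 months called 6 with array weights and 4 with only the groups compared, and the interaction F test 5 with array weights, against 1. The causes were not tested. The shares of all probe sets called in these alternatives are not given here, so that a general change in calls was not set apart. Leaving out 1 array at a time gave 0 to 5 members for 14 against 6 months in bone marrow, 0 to 1 for 18 against 6, 0 to 7 for 18 against 14 and 0 to 7 for the F test. For the differences between cell types it gave 1 to 2 for 14 against 6 months, 1 to 4 for 18 against 14 and 1 to 3 for the F test. Of the single gene values, 2520 kept their side of the threshold, 63 passed only in an alternative, 7 lost the call and 0 reversed. All 7 were the fall of Pf4 in bone marrow at 14 months.

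The replicate numbers gave no pairing: r between same-numbered arrays, after removal of group means, ran from -0.14 to 0.15, with 1 of 9 pairs over 0.1. With the replicate number as a block over all groups the counts were 7, 7, 6 and 7 between cell types over all ages and at 6, 14 and 18 months, 1, 0 and 0 in bone marrow, 1 in each epididymal comparison and 1 in each difference between cell types, and the block changed no call. With ribosomal protein genes set equal, the median of all probe sets between cell types shifted by -0.75. No member has a further probe set of its own, so that this alternative gave no value.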
